A study of Homo sapiens with 4 samples.

Results

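Glutathione peroxidases and glutathione transferases were examined in Nalm-6 cells through 10 genes, *GPX1*, *GPX3*, *GPX4*, *GPX7*, *GSTM3*, *GSTP1*, *GSTK1*, *MGST1*, *MGST2* and *MGST3*. The genes were chosen by name with earlier results of these data known, so counts among them only describe these arrays. Every probe whose accession is a transcript of one of them was used. They are 10 of 17721 named genes and 13 of 41000 probes on the array. The study asked how loss of Arp5 or Arp8, subunits of the INO80 chromatin remodeling complex, alters gene expression. RNA from this human pre-B line, grown without any treatment that causes oxidative stress, was hybridized to one-color Agilent arrays. Each genotype has 1 array, and the 4 arrays lie on the same slide. Wild-type cells are the parent line without a disrupted locus. In Arp5 KO cells the locus for Arp5 was disrupted by homologous recombination, and in Arp8 KO cells the locus for Arp8 was. The remaining array carries the label Arp8 overexpression and is called the OE-labelled array, and with the Arp8 KO array it makes the pair of Arp8 arrays. Its deposited design names a tetracycline-regulated (Tet-Off) system placed in Arp8 knockout cells, and which cells were grown with tetracycline is not stated. Each KO genotype is a single established line with 1 array, so the disrupted gene, the line and the culture cannot be told apart.

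Glutathione peroxidases use glutathione to reduce hydrogen peroxide and lipid hydroperoxides, and several of them carry selenocysteine at the active site. Glutathione transferases join glutathione to reactive compounds, and the membrane-bound MGST enzymes belong to a separate family that also includes leukotriene-forming proteins. Antioxidant response elements and AP-1 sites are known control elements of several genes of these families.

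Values are processed signals in the scanner's arbitrary units, and a ratio is the log2 difference between arrays after each was set to its own 75th percentile. No genotype has a replicate array, and the number of arrays limits the precision. Each ratio is therefore read against a pair of technical errors. One is the error that the scanner software gives for each signal, carried to the ratio, and the other is the SD of ratios over repeated spots of the same probe. Among 264 repeated probes that SD had a median of 0.50 for dimmest signals under 10 units, 0.246 from 10 to 20 units, 0.197 from 20 to 50 units, 0.062 from 50 to 500 units and 0.032 above. Neither error holds the variation between cultures. The software marks a spot as well above background or not, and a probe that lacks this mark on the dimmer array gives only a bound. Of the 43376 spots other than controls, the number so marked was 31188 in wild-type cells against 31420 with Arp5 KO and 30394 with Arp8 KO, and 30803 on the OE-labelled array. The 3 ratios to wild-type cells share the wild-type array.

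The genotype labels were first set against the targeted genes. *ACTR5*, which encodes Arp5, gave 1909 units in wild-type cells against 65.3 with Arp5 KO and 1849 with Arp8 KO, and 2088 on the OE-labelled array. Its log2 ratio in Arp5 KO cells was -4.85. The pair of *ACTR8* probes, for the gene of Arp8, read 784.8 and 1654 units on the Arp8 KO array beside 1092 and 2149 in wild-type cells, at ratios of -0.49 and -0.40. A loss of *ACTR8* mRNA was thus not seen under the Arp8 KO label, and where the probes lie relative to the disruption is not known. On the OE-labelled array these probes read -0.71 and -0.23, so a higher *ACTR8* signal, as its label would have it, was not seen there. *INO80*, the ATPase of the complex, had ratios of 0.82 and 0.94 with Arp5 KO and 1.01 and 1.08 with Arp8 KO, and 0.20 and 0.34 on the OE-labelled array.

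Cell type markers were read next. Of 12 precursor B cell markers 11 had a probe, and these 11 were well above background on all 4 arrays, with *IGLL1*, a surrogate light chain gene, the brightest. The summed signal of this list was 592177 units in wild-type cells against 587657 with Arp5 KO and 567591 with Arp8 KO, and 581666 on the OE-labelled array. Most of that sum comes from the *IGLL1* probes, so it does not follow single genes. *CD79A*, of the B cell receptor, had -0.56 in Arp5 KO cells and 0.50 on the OE-labelled array, and in Arp8 KO cells *VPREB1*, another surrogate light chain gene, had -0.61 and *RAG2*, a recombinase gene, -0.69. Precursor B cell markers were thus present on all 4 arrays at levels that differed by gene. The 3 T cell markers summed to 95.6, 95.1, 94.1 and 99.2 units in the same order, and *CD3E* and *CD2* of that list were well above background on all 4 arrays. Of the 3 epithelial and stromal markers 2 had a probe, and the list, mostly *KRT18*, summed to 381.7, 394.1, 311.2 and 224.5 units. *CD3D* of T cells, *HBB* of erythroid cells and *EPCAM* of epithelial cells were well above background on no array, while *HBA1* of erythroid cells was so on all 4, at 91.1 units in wild-type cells. Markers of other cell types were therefore not all at background. The 4 myeloid markers summed to 194.4, 188.4, 286.8 and 282.1 units, with *CD14* the brightest in wild-type cells and *MPO* well above background on no array. Within that list *LYZ*, the lysozyme gene, was higher on both Arp8 arrays, at ratios of 1.35 in Arp8 KO cells and 1.31 on the OE-labelled array, and *CSF1R*, a growth factor receptor gene, had 0.53 and 1.17. *CD14* had 0.02 and -0.14 there, so the myeloid markers did not move together.

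Of the 10 glutathione enzyme genes, 8 had a probe well above background on all 4 arrays, 9 gave a usable ratio in each comparison, and *MGST1* gave none. *GSTK1* and *GPX3* were the members beyond 2-fold in Arp5 KO cells, both lower, which makes 2 of 9 genes. Among all 13721 usable genes in that comparison 1.65% were lower and 1.38% higher beyond 2-fold. No member was beyond 2-fold in Arp8 KO cells, where 2.31% of 13580 genes were lower and 2.09% higher. The OE-labelled array had none either, beside 2.28% lower and 2.16% higher of 13659 genes. Members beyond 2-fold were thus seen in Arp5 KO cells. On the Arp8 arrays *GSTK1* had ratios of 0.94 and 0.93, nearer to 2-fold than the software error of 0.204, so its side of the threshold there is uncertain. Whether the comparisons differ in members beyond 2-fold was not tested. At 1.5-fold the members beyond the threshold were the same *GSTK1* and *GPX3* in Arp5 KO cells, beside 10.9% of all genes in either direction. In Arp8 KO cells *GSTK1* was then higher and *GPX3* lower, beside 14.1% of all genes, and on the OE-labelled array *GSTK1* alone was higher, beside 14.1%. The median ratio of the 9 members was 0.01 in Arp5 KO cells and 0.07 in the Arp8 KO line, with 0.06 on the OE-labelled array, against 0.02, 0.02 and 0.03 over all genes. Members went in both directions, so these medians do not describe single genes.

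**Figure D1:**
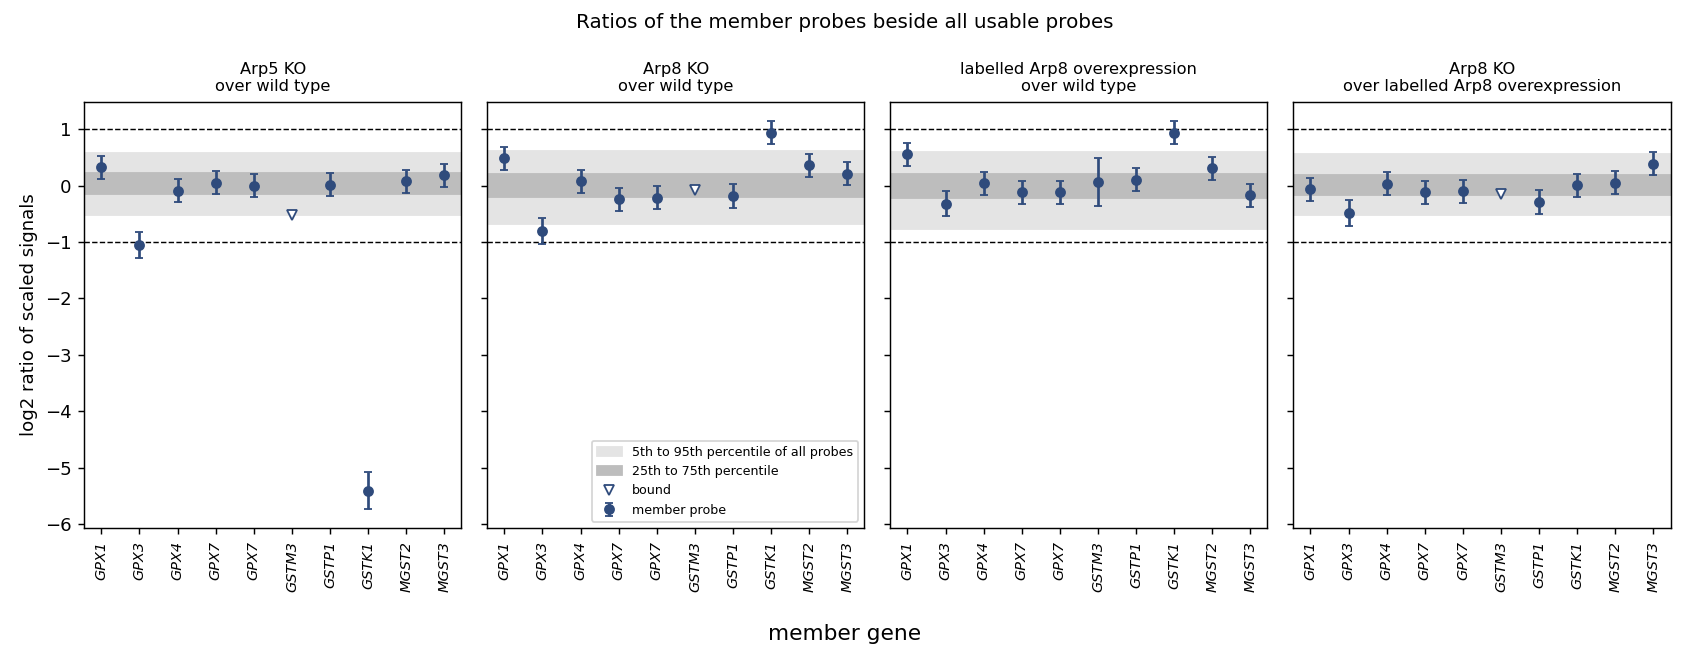
Log2 ratios of the 10 usable member probes (y axis) by gene (x axis), 1 panel per comparison, with bars for the scanner software's error, open triangles for bounds, grey bands for all usable probes and dashed lines at 2-fold. *GSTK1* is at -5.40 and *GPX3* at -1.06 in Arp5 KO over wild-type cells, and no member is beyond 2-fold in the other panels.

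*GSTK1* and *GPX3* held the members' large ratios. *GSTP1*, a bright member within 1.5-fold of wild-type cells, was the one whose promoter window held the searched stress-response motifs. Promoter sequences of *GSTK1*, *GPX3* and *GSTP1* are therefore shown. They are the 250 bases before the RefSeq gene start in assembly GRCh38.p14, on the + strand, at chr7:143263191-143263440 for *GSTK1*, chr5:151020341-151020590 for *GPX3* and chr11:67583562-67583811 for *GSTP1*. Promoters were found for 9 of the 10 members, all but *MGST2*. Capitals mark matches, on either strand, to the antioxidant response element core TGACNNNGC, the AP-1 site TGANTCA or the GC box GGGCGG, which is bound by Sp1.
GSTK1: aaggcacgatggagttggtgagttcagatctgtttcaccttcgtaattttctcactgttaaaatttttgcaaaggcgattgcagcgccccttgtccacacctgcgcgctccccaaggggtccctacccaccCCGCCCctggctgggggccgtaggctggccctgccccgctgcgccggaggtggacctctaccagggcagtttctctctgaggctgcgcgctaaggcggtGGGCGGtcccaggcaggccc
GPX3: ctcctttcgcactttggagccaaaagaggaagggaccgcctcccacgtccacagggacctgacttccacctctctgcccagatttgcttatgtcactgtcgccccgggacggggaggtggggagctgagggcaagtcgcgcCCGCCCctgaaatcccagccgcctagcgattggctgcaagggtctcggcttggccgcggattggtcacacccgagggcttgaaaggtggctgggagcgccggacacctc
GSTP1: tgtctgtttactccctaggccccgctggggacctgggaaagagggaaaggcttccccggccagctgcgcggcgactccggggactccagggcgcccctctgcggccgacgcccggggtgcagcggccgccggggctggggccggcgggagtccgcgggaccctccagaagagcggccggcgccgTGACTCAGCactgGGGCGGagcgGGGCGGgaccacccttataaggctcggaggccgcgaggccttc
The *GSTK1* window held 2 GC boxes, 119 bases before the start on the minus strand and 20 bases before it on the plus strand. *GPX3* had 1 GC box, 109 bases before its start on the minus strand. In the *GSTP1* window the antioxidant response element core and the AP-1 site overlapped, both beginning 66 bases before the start, and 2 GC boxes followed at 53 and 43 bases. Neither of the stress-response motifs was in the *GSTK1* or *GPX3* window. Of 35116 promoters of this length 10.9% held the antioxidant response element core, 6.6% the AP-1 site and 42.6% a GC box. *GSTK1* had 15 CG dinucleotides, *GPX3* 17 and *GSTP1* 28, against a median of 11. A match is a description of the letters and not evidence of a bound site or of a cause.

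*GSTK1*, the kappa-class transferase of mitochondria and peroxisomes, had the widest range of the members over the 4 arrays. Its probe A_23_P20107 read 422.7 ± 42.3 units (scanner software's error) in wild-type cells against 9.82 ± 1.95 with Arp5 KO and 818.1 ± 81.8 with Arp8 KO, and 820.6 ± 82.1 on the OE-labelled array. Arp5 KO cells were thus the low array, wild-type cells lay between, and the other two were high and did not differ beyond their errors. The signal was 42.4-fold lower in Arp5 KO than in wild-type cells, a log2 ratio of -5.40 with a software error of 0.32 and a repeated-spot SD of 0.517 for probes this dim. Among the 28817 probes well above background on both arrays 3 had a lower ratio, namely *S100A10*, which encodes a partner of annexin A2, a probe without a gene name and *PYCARD*, described further on. Its place among all 29912 usable probes depends on how bounds are treated, with 4 probes lower when dim signals are raised to the floor and 7 lower at their own signals. The probe was still well above background in Arp5 KO cells, so that ratio is a measured value and not a bound. Under normexp background correction, whose offset compresses dim signals, it was -2.75. In bulk RNA, fewer cells with the transcript and less transcript per cell cannot be told apart.

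In Arp8 KO cells *GSTK1* was 1.91-fold higher than in wild-type cells, at a ratio of 0.94 with a software error of 0.204. That places it above 98.2% of the usable probes. The OE-labelled array gave a ratio of 0.93, above 98.3% of the probes. Set against each other without the wild-type array, Arp8 KO cells and the OE-labelled array did not differ in *GSTK1*, with a log2 ratio of 0.0013. Of the myeloid markers, *LYZ* and *CSF1R* were higher on the same pair of arrays. *CD14* had 0.02 and -0.14 there, and *MPO* was well above background on no array. Whether myeloid transcripts have a part in the *GSTK1* ratios was not tested.

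The *GSTK1* probe has 1 spot per array, so its surroundings were read as well. The unprocessed median pixel signal of the spot was 460.5 in wild-type cells against 41.0 with Arp5 KO and 838.0 with Arp8 KO, and 871.0 on the OE-labelled array. Local background around the spot was 22.5 units or less on all 4 arrays. The scanner software put no outlier mark on it. Of the spots within 5 rows and columns, 47 were well above background on both the wild-type and the Arp5 KO array, with a median ratio of 0.09 and a range of -0.98 to 0.95. That choice leaves out spots that lost their signal in Arp5 KO cells, so spots were also chosen by the wild-type array alone. Of the 48 so found, 24 were bright enough in wild-type cells for a ratio as low as that of *GSTK1* to be seen, and these 24 ran from -0.84 to 0.95. The other spots could not have shown it.

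Genes next to *GSTK1* on chromosome 7 were then read, 5 measured genes on each side with 13 probes. Their ratios ran from -0.52 to 0.36 in Arp5 KO cells, from -0.33 to 0.51 in Arp8 KO cells and from -0.22 to 0.26 on the OE-labelled array. The lowest in Arp5 KO cells belonged to *CASP2*, a caspase gene and the next measured gene after *GSTK1*, whose 3 probes read -0.42, -0.52 and -0.36. *OR6W1P*, an olfactory receptor pseudogene and the next measured gene before it, read 0.06. In the same stretch 14 probes bore the well-above-background mark on the wild-type array, whatever their signal in Arp5 KO cells. Of these 14 only the 3 *CASP2* probes and that of *ZYX*, a focal adhesion protein gene, were bright enough in wild-type cells for a ratio of -5.40 to be seen, and they read from -0.52 to -0.18. For the other neighbouring genes such a low ratio could not have been seen.

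**Figure D2:**
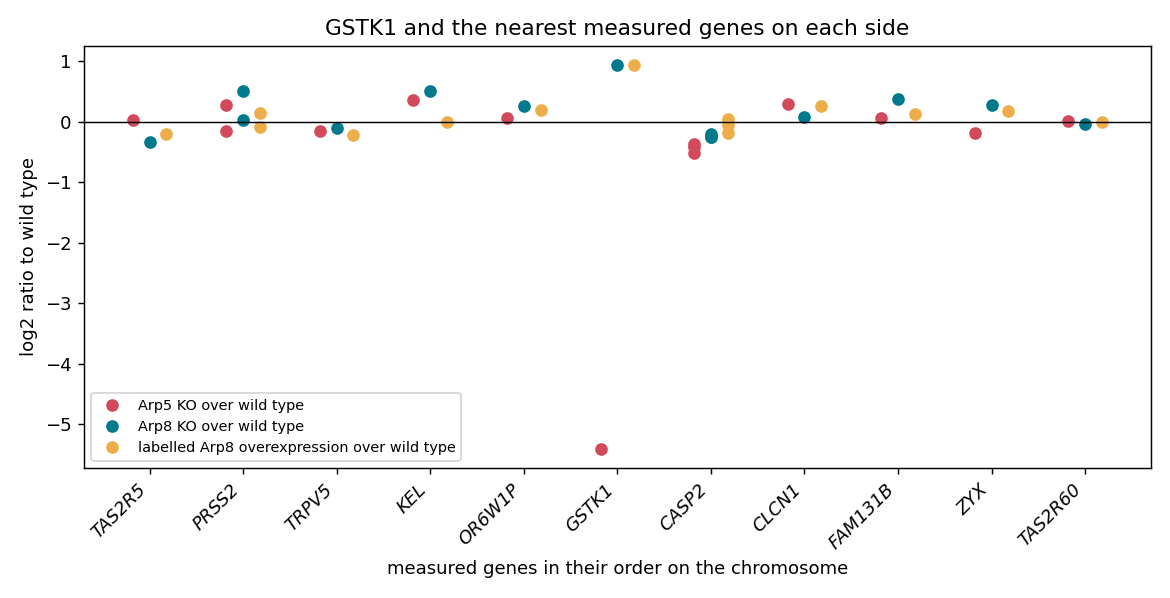
Log2 ratios to wild-type cells (y axis) of *GSTK1* and the 5 measured genes on each side, in their order on the chromosome (x axis), with 1 point per probe and colors for the 3 arrays. *GSTK1* in Arp5 KO cells is at -5.40, and the neighbouring genes, most of them too dim to show such a ratio, lie between -0.52 and 0.51.

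*GPX3*, the secreted selenoenzyme of blood plasma, was the other member beyond 2-fold. Probe A_23_P133474 read 60.8 ± 6.35 units in wild-type cells against 28.8 ± 3.36 with Arp5 KO and 35.2 ± 4.13 with Arp8 KO, and 49.5 ± 5.31 on the OE-labelled array. Both KO lines were the low arrays, with error ranges that overlapped, and wild-type cells were the highest. In Arp5 KO cells the signal was 2.08-fold lower, at a ratio of -1.06 with a software error of 0.226 and a repeated-spot SD of 0.166. This ratio differs from 2-fold by less than either error, so its side of the threshold is uncertain, and under normexp correction it was -0.41. Under that correction the ratio was -0.26 in Arp8 KO cells, no longer beyond 1.5-fold, and -0.07 on the OE-labelled array. Without it Arp8 KO cells gave -0.81 with a software error of 0.227, and the OE-labelled array gave -0.32 with an error of 0.216. Directly compared, Arp8 KO cells were at -0.49 relative to the OE-labelled array, which is beyond 2 software errors and was so for no other member, while under normexp correction it was -0.19.

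The 10 measured neighbours of *GPX3* on chromosome 5 spread more widely than those of *GSTK1*. Their 18 probes ran from -1.43 to 0.34 in Arp5 KO cells, from -0.74 to 0.47 in Arp8 KO cells and from -0.78 to 0.53 on the OE-labelled array. The lowest was 1 of 2 probes of *MYOZ3*, a Z-disc protein gene of muscle, while its other probe read 0.19. With that *MYOZ3* probe, *GPX3* in Arp5 KO cells lay within the range of the genes around it.

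The remaining peroxidases were bright and within 1.5-fold of wild-type cells. *GPX1*, the selenoenzyme of the cytosol, read 69128 units in wild-type cells against 85216 with Arp5 KO and 98073 with Arp8 KO, and 103201 on the OE-labelled array. Wild-type cells were the lowest of the 4, at ratios of 0.32, 0.49 and 0.56 for the other arrays with a software error of 0.204 each. The ratios in Arp8 KO cells and on the OE-labelled array were beyond 2 of these errors, and neither reached 1.5-fold. *GPX4*, which reduces phospholipid hydroperoxides and so guards cells from ferroptosis, read 18121, 16746, 19289 and 18975 units in the same order. Its ratios of -0.09, 0.07 and 0.04 were all within the software error. *GPX7*, a peroxidase of the endoplasmic reticulum without selenocysteine, has 2 probes. These gave -0.24 and -0.22 in Arp8 KO cells and -0.12 on each probe for the OE-labelled array, and in Arp5 KO cells both were within 0.05 of wild-type cells. The probes for *GPX7* thus differed from each other by less than the software error in every comparison, though in Arp5 KO cells by more than the repeated-spot SD of 0.032.

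**Figure D3:**
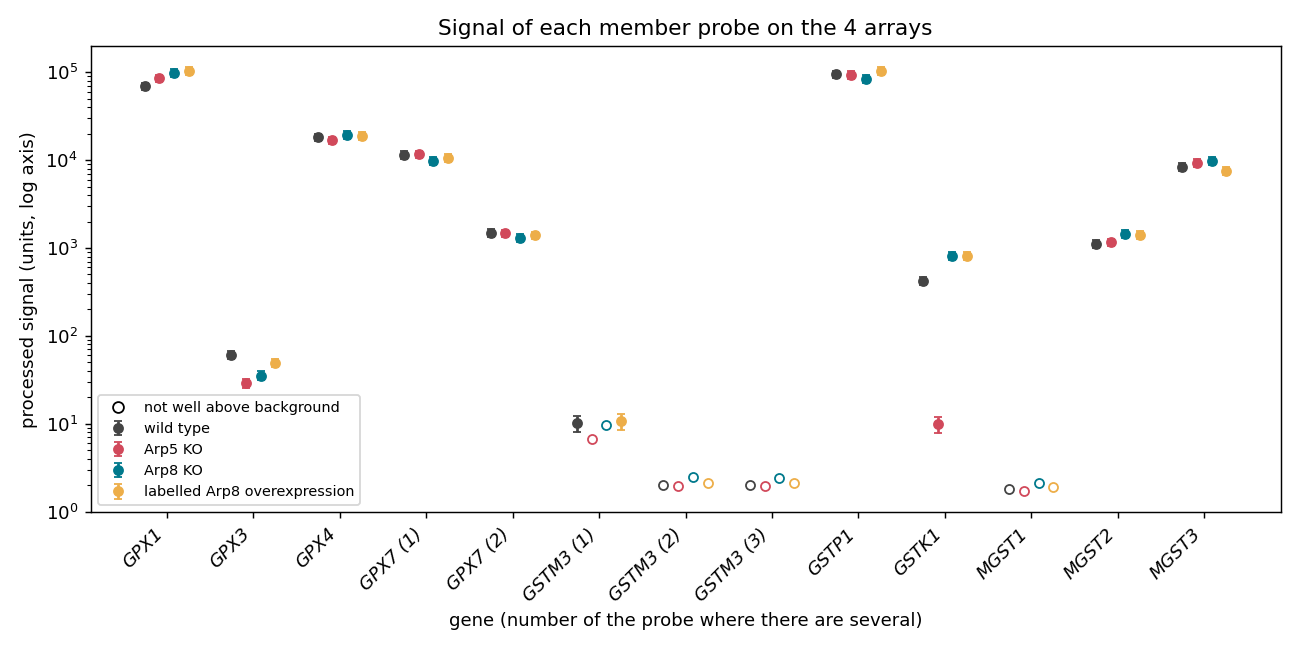
Processed signal in units on a log axis (y) of the 13 member probes (x), with 1 point per array, bars for the scanner software's error and open circles for probes not well above background. *GSTK1* is at 422.7 units in wild-type cells and at 9.82 with Arp5 KO, and 2 *GSTM3* probes and the *MGST1* probe are open on all 4 arrays.

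Among the transferases, *GSTP1*, the pi-class enzyme of the cytosol, has a repeated-spot error of its own, since its probe has 10 spots per array. It gave 95147 units in wild-type cells against 94376 with Arp5 KO and 84665 with Arp8 KO, and 104082 on the OE-labelled array. The ratios were 0.01, -0.19 and 0.11, with SDs over its own spots of 0.0204, 0.015 and 0.0188. Arp5 KO cells were within that spread of wild-type cells, and the ratios of the Arp8 arrays exceeded it but not the software error of 0.204. Against the OE-labelled array Arp8 KO cells were at -0.29, beyond that error. *GSTP1* thus stayed within 1.5-fold in every comparison, though not within its errors in all of them. How much cultures of 1 genotype vary was not measured.

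The membrane enzymes *MGST2* and *MGST3* reduce lipid hydroperoxides with glutathione. *MGST2* read 1121 units in wild-type cells against 1163 with Arp5 KO and 1451 with Arp8 KO, and 1407 on the OE-labelled array. The Arp8 arrays were the higher ones, at ratios of 0.36 and 0.30. *MGST3* gave 8362, 9340, 9798 and 7552 units in the same order, with ratios of 0.18, 0.21 and -0.17. Its direct ratio of Arp8 KO cells to the OE-labelled array was 0.38, the highest of the members in that comparison. No member was beyond 2-fold there, beside 1.28% of 13506 genes lower and 0.903% higher, and the median of the members was -0.07.

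Set beside their errors, the members differ in how many ratios stand out. Of the 9 probes well above background on all 4 arrays, 3 were beyond 1 software error and 2 beyond 2 errors in Arp5 KO cells, beside 43.9% and 15.5% of all 27921 such probes. For Arp8 KO cells the counts were 7 and 3, beside 47.7% and 19.6%, and on the OE-labelled array they were 4 and 2, beside 48.1% and 20.4%. Against the repeated-spot SD, which is smaller for bright probes, 6 of the 9 were beyond 2 SDs in Arp5 KO cells, 9 in the Arp8 KO line and 7 on the OE-labelled array. Most probes on the arrays were beyond 2 SDs as well, 68.8%, 69.0% and 68.4% in the same order. How many ratios stand out thus depends on the error used, and whether members differ from all probes in this was not tested. The 6 genes measured on all 4 arrays other than *GSTK1* and *GPX3* ran from -0.09 to 0.32 in Arp5 KO cells, from -0.24 to 0.49 in Arp8 KO cells and from -0.17 to 0.56 on the OE-labelled array. These ranges leave out *GSTM3*, described next.

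*GSTM3*, a mu-class transferase, and *MGST1*, a membrane enzyme, were at or near background. Probe A_23_P12343 of *GSTM3* read 10.1 ± 2.12 units in wild-type cells and 10.7 ± 2.26 on the OE-labelled array. In Arp5 KO cells, at 6.78 units, and Arp8 KO cells, at 9.64, it was not well above background. Against wild-type cells, Arp5 KO cells were lower by at least 1.44-fold, a bound of -0.53 beside a software error of 0.51. Under normexp correction this ratio was -0.09, so a difference is not resolved. The other 2 probes of *GSTM3* lay between 1.96 and 2.46 units and the *MGST1* probe between 1.70 and 2.12, well above background on no array. For these probes a ratio cannot be given.

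Genes whose pattern over the 4 arrays was most like that of *GSTK1* and *GPX3*, the members with the widest range, were sought among 19272 named probes by the distance between centred log2 profiles. For *GSTK1* the nearest was *PYCARD*, which encodes the inflammasome adaptor ASC, at a distance of 0.30. *PYCARD* read 1348 units in wild-type cells against 28.4 with Arp5 KO and 2459 with Arp8 KO, and 3117 on the OE-labelled array. Its ratios of -5.55, 0.85 and 1.19 stood beside -5.40, 0.94 and 0.93 for *GSTK1*. Next came *ACTR5*, the disrupted gene, at 1.26 and *OCIAD2* at 1.45, and neither had the higher signal of *GSTK1* in Arp8 KO cells, with ratios of -0.06 and 0.23. For *GPX3* the nearest were *GALNT6*, an enzyme that starts mucin-type glycosylation, at 0.05, *EXOC5*, an exocyst subunit, at 0.10 and *BIK*, a pro-apoptotic BCL2 relative, at 0.10. *GALNT6* had ratios of -1.11, -0.78 and -0.31, beside -1.06, -0.81 and -0.32 for *GPX3*. It was dim, at 26.0 units in wild-type cells, 11.9 with Arp5 KO, 15.3 with Arp8 KO and 21.3 on the OE-labelled array. The repeated-spot SD, 0.246 from 10 to 20 units, is larger than its distance, so the closeness of the match is not resolved. Of the 3 named genes nearest to *GSTK1*, *PYCARD* alone thus had both the low signal in Arp5 KO cells and the high signal on the Arp8 arrays. Probe A_24_P364825, which has no gene name and so was outside that search, lay second after *PYCARD* at 0.32 when all 27921 probes were compared. It read 707.3 units in wild-type cells against 13.7 with Arp5 KO and 1010 with Arp8 KO, and 1094 on the OE-labelled array, at ratios of -5.67, 0.50 and 0.61.

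**Figure D4:**
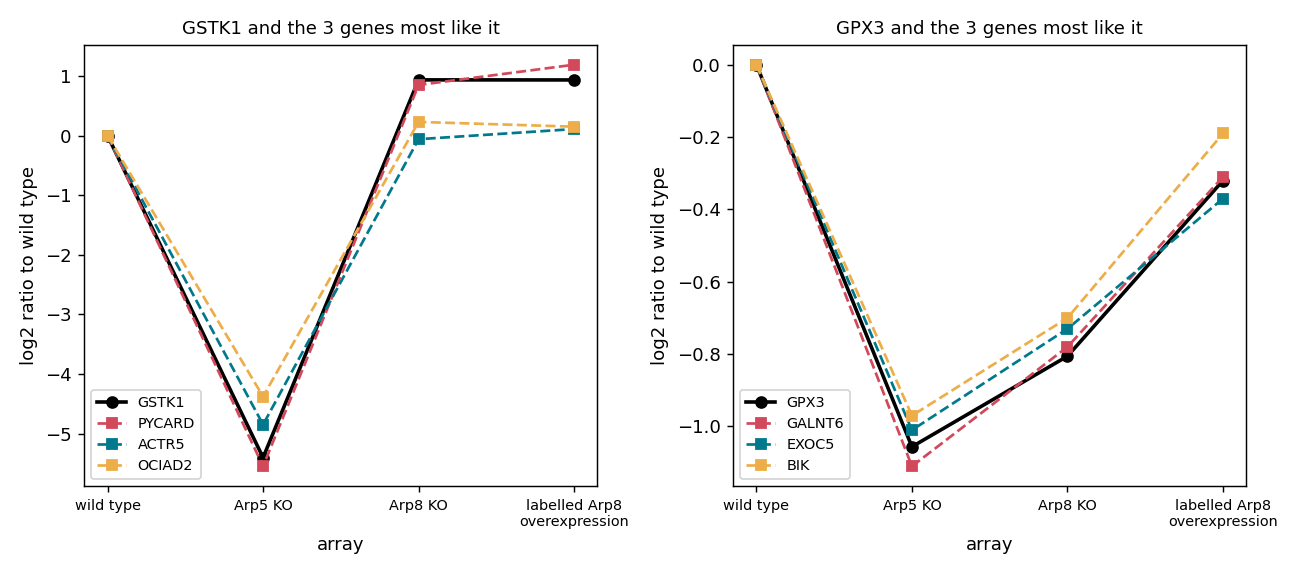
Log2 ratios to wild-type cells (y axis) on the 4 arrays (x axis) of *GSTK1* (left) and *GPX3* (right), in black, with the 3 genes most like each as dashed lines. *PYCARD* follows *GSTK1*, at -5.55 in Arp5 KO cells and 0.85 in Arp8 KO cells.

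Other genes of the same families were described for comparison with the members. Of 24 listed, 23 had a probe and 15 gave a ratio in either KO line. In Arp5 KO cells 0 of the 15 were beyond 2-fold, beside 1.65% lower and 1.38% higher of all genes. The median ratio there was 0.19, against 0.02 over all genes. In Arp8 KO cells 1 was higher, beside 2.09% of all genes, and on the OE-labelled array 2 of 16 were, beside 2.16%. The medians were 0.12 and -0.02, against 0.02 and 0.03 over all genes. The one higher on both was *LTC4S*, leukotriene C4 synthase and a relative of *MGST2* and *MGST3*, at ratios of 0.96, 1.20 and 1.41 for Arp5 KO cells, Arp8 KO cells and the OE-labelled array. Its relative *ALOX5AP*, the 5-lipoxygenase activating protein, had 1.68 and 1.86 by its probes on the OE-labelled array. It was also higher than wild-type cells in Arp8 KO cells, at 0.68 and 0.72, and in Arp5 KO cells its probes read 0.72 and 0.04. When Arp8 KO cells were set directly against the OE-labelled array, 1 of its 2 probes was lower beyond 2-fold, at -1.13, and the other lay just within it. Of the myeloid markers, *LYZ* was higher on the Arp8 arrays but not in Arp5 KO cells, at -0.24. *CD14* of the same list had 0.02 and -0.14 on the Arp8 arrays, and *MPO* was well above background on no array. Whether myeloid transcripts have a part in these ratios was not tested. *GSTA3*, an alpha-class transferase, had 0.80 in Arp5 KO cells with a software error of 0.34. Its probe was dim, at 10.7 ± 2.04 units in wild-type cells and 18.3 ± 2.46 with Arp5 KO. *GSTZ1*, an enzyme of tyrosine breakdown, had 0.39, 0.45 and 0.50 on the 3 arrays.

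Genes that supply and recycle the glutathione used by these enzymes were next, with 22 of 24 measured. In Arp5 KO cells 1 was lower beyond 2-fold, *SLC7A11* of the cystine transporter, whose usable probes read -0.85 and -1.10. In Arp8 KO cells and on the OE-labelled array 1 was higher, *OPLAH*, which returns 5-oxoproline to glutamate, at 437.1 and 299.3 units against 108.1 in wild-type cells. It was higher in Arp5 KO cells too, at 196.7 units and a ratio of 0.89. The medians of the list were 0.03, 0.04 and 0.03. Under normexp correction *SLC7A11* in Arp5 KO cells and *LTC4S* on both Arp8 arrays were no longer beyond 2-fold. *GCLC* and *GCLM*, the subunits of the first enzyme of glutathione synthesis, had 0.35 and -0.12 in Arp5 KO cells. Glutathione synthetase, *GSS*, had -0.33 and the reductase *GSR* 0.03 there. *CHAC1*, which degrades glutathione, had 0.61 in Arp5 KO cells, and *GGT7*, of the gamma-glutamyltransferase family, had -0.57 and 0.15 by its probes on the OE-labelled array. Most of these genes stayed within 2-fold, as did most members and most genes on the arrays. Of all genes, 1.65% were lower and 1.38% higher beyond 2-fold with Arp5 KO, against 2.31% and 2.09% with Arp8 KO. The OE-labelled array had 2.28% lower and 2.16% higher. Whether this list differs from all genes was not tested.

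The selenoprotein synthesis genes bear on the peroxidases *GPX1*, *GPX3* and *GPX4*, which contain selenocysteine. All 8 were measured, and 0 were beyond 2-fold in any comparison, with medians of 0.05, 0.02 and 0.06. *SECISBP2*, which binds the selenocysteine insertion element, had 0.11 and 0.15 in Arp5 KO cells, and *SEPHS2*, which makes the selenium donor, had -0.14. *TRNAU1AP*, a binding protein of the selenocysteine transfer RNA, had 0.50, 0.62 and 0.51 by its 3 probes in Arp5 KO cells. *EEFSEC*, the elongation factor for selenocysteine, had -0.51 and *PSTK*, a kinase of the same pathway, 0.30 in those cells. *SEPSECS*, which completes the selenocysteine transfer RNA, had -0.50 on the OE-labelled array. In Arp5 KO cells, where *GPX3* was lower, 0 of these 8 were beyond 2-fold, beside 1.65% lower and 1.38% higher of all genes. With shares this small, a list of 8 genes cannot show whether it differs from all genes, and this was not tested.

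**Figure D5:**
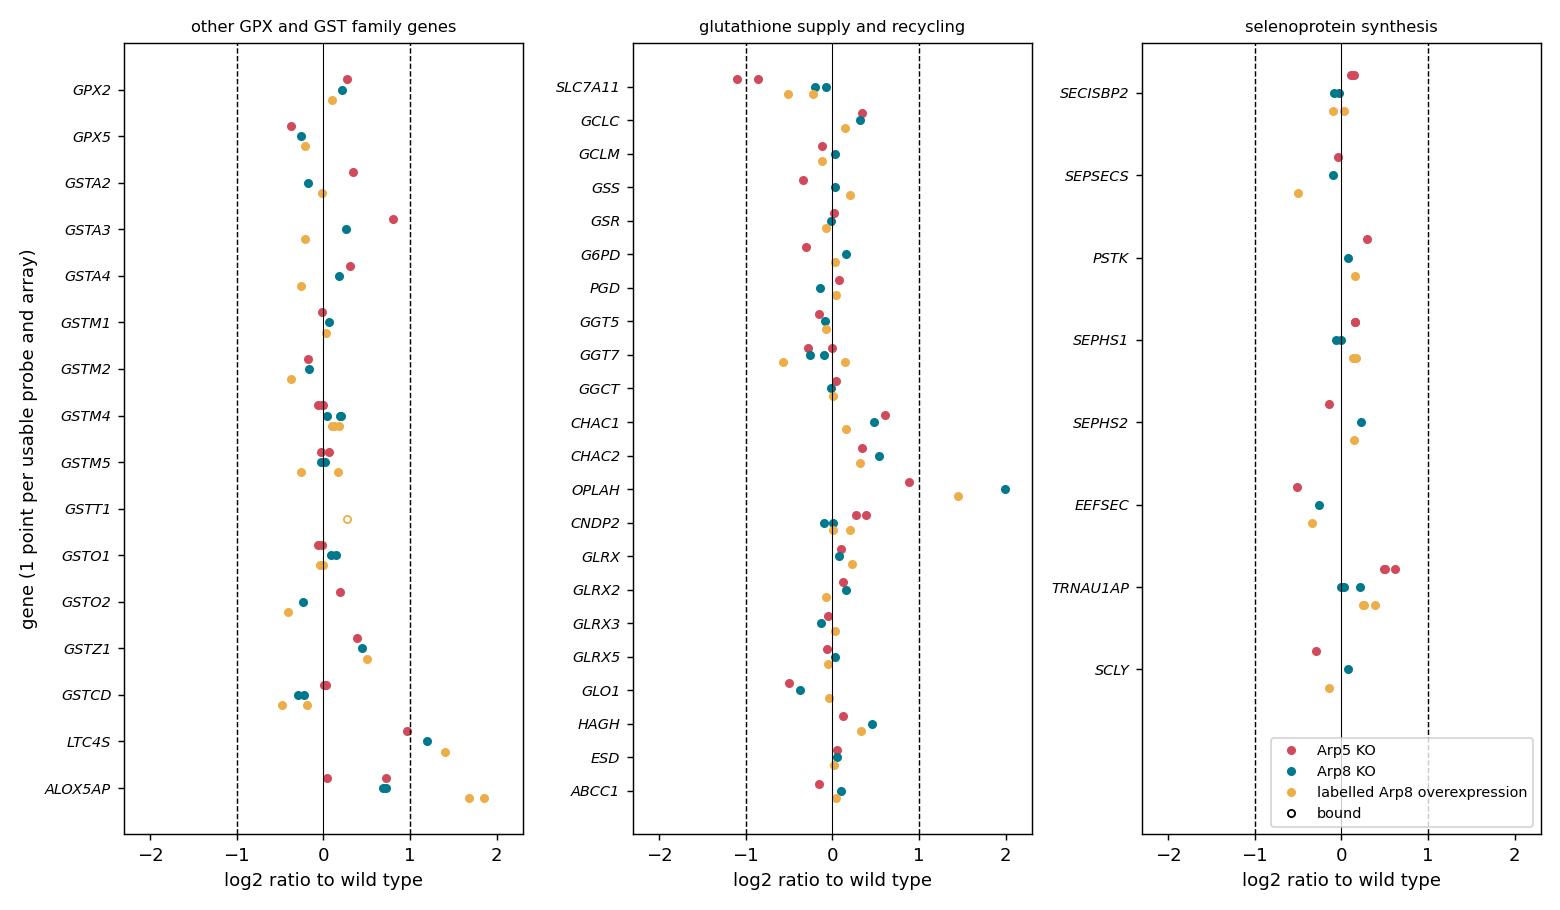
Log2 ratios to wild-type cells (x axis) of the usable probes of each gene (y axis) in the 3 comparison lists, with colors for the 3 arrays, an open circle for a bound and dashed lines at 2-fold. *LTC4S* and *ALOX5AP* on the left and *OPLAH* in the middle reach 1.41, 1.86 and 1.45 on the OE-labelled array, and no probe on the right is beyond 2-fold.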

How the data were processed

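The members and the comparison lists were chosen with earlier results of these data known. The authors deposited Agilent Feature Extraction 10.5.1.1 output for 4 arrays, whose processed signal is a linear intensity from which the software had removed background and spatial trend within the array. They also deposited an intensity table that equals this signal times 1 factor per array, set in a way that is not stated.

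Log2 processed signals were set to the 75th percentile of each array over all spots other than controls. Outlier spots were then left out, and the spots of a probe were averaged. A ratio needed the brighter of its arrays to be well above background. A dimmer signal was raised to the lowest one so marked on its array, which was 7.76 units in wild-type and 6.90 in Arp5 KO cells and 9.44 in the Arp8 KO line, with 8.87 on the OE-labelled array. A gene counted as beyond a fold threshold when any usable probe was, and entered the medians as the mean of its probes. No p-values are given, since each genotype has 1 array. Transcript accessions named 26222 of 41000 probes (64.0%). The headers name build hg18, so the GRCh38.p14 gene table gave names and neighbour order only. The ratio step was tested on simulated data.

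Named are all members, *ACTR5*, *ACTR8*, *INO80*, cell type markers, and *GCLC*, *GCLM*, *GSS*, *GSR*, *SLC7A11*, *SECISBP2* and *SEPHS2*. To these were added the 4 genes per list (other family genes, glutathione supply and recycling, selenoprotein synthesis) with the largest absolute ratio, and the 3 genes most like each of the 2 members with the widest range. Other genes and the unnamed probe were chosen after their values were seen. Alternatives were other thresholds, filters and scalings, the authors' table, and normexp correction of the median spot signal with an offset of 50. Values called normexp-corrected were also quantile-normalized across the arrays. Python 3.11.15, numpy 2.4.6, pandas 2.3.3, matplotlib 3.10.9, R 4.3.3 and limma 3.58.1 were used.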

Additional observations from a re-analysis of the deposited data

Results flagged for a closer look

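*GSTK1* lay on opposite sides of wild-type cells in the KO lines, with a log2 ratio of -5.40 in Arp5 KO cells and 0.94 in Arp8 KO cells. Each value comes from 1 array, and both ratios share the wild-type array. The difference between the KO lines was not tested.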

How the results depend on the processing

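With 1 array per genotype, no paired analysis could be made. Normexp correction of the median spot signal used an offset of 50, which by construction shrinks ratios where signals are low. Quantile normalization followed, and the shares of these steps were not separated. Under it the *GSTK1* ratio in Arp5 KO cells was -2.75 in place of -5.40. That of *GPX3* was -0.41, so 1 member was beyond 2-fold in Arp5 KO cells. Of the 45 other glutathione and selenoprotein genes, 0 were then beyond it in Arp5 KO cells and 1 was in the Arp8 KO line. Among all genes 50 were then higher and 78 lower of 13666 in Arp5 KO cells. The Arp8 KO line had 90 higher and 146 lower of 13535. At 1.5-fold, a wider limit by construction, the members beyond it were 2 in Arp8 KO cells and 1 on the OE-labelled array. Of the 45 other glutathione and selenoprotein genes 7 were beyond 1.5-fold in Arp5 KO cells, beside 10.9% of all genes. In the other alternatives the *GSTK1* ratio in Arp5 KO cells was between -5.50 and -5.40. The 40 member ratios, 18 of them over 0.2 in size, gave 394 values over all alternatives. All 179 values of those 18 kept their sign. Smaller ones such as *GSTP1* in Arp5 KO cells and *GPX4* on the OE-labelled array could change it. Alternatives that altered only filters, outlier spots or the dim side left most ratios unchanged, so a kept sign there says little. Of the 394 values 68 moved by at least the repeated-spot SD.

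The percentile without outlier spots, the dim side at its own signal, the reading of spots and genes near *GSTK1*, its rank, the likeness over unnamed probes and the counts by repeated-spot SD and over all probes were chosen after seeing the data. Signal over background limits *GSTM3*, *MGST1* and the low side of *GSTK1*. Culture variation was not measured.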
